A study of Caenorhabditis elegans with 12 samples.

Results

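Worms fed desiccated bovine thymus were compared with worms fed the control diet, using the 3 libraries of each diet, and all genes with enough counts were tested. These 6 libraries belong to a series of 12 messenger RNA libraries from whole Caenorhabditis elegans, and 14610 of the 46929 genes in the count table had enough counts. The remaining 6 libraries, 3 from worms fed a cytoplasmic thymus extract and 3 from worms fed a nuclear thymus extract, shared the estimate of the spread between replicates and served for direct comparisons. Before the diets began, all 4 groups had been raised with live bacteria (OPS0 in the labels) in nematode growth medium until the last larval stage (L4), and the supplements were given in chips from day 1 of adulthood. The sources used here do not give strain, genotype, dose, sex or age at collection. The labels name 3 supplement products without saying which is the desiccated gland. Nothing in them says that the replicates were separate cultures, so the p-values reflect only how much these samples vary, which may be technical.

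The worm takes up food through an intestine that is a single tube of polarised cells, with a brush border that carries peptide, amino acid and nucleoside transporters, and the same cells make yolk, store fat and secrete lysozymes and lectins against microbes. Their gene programme is driven by GATA factors, of which ELT-2 is the main one in adults. Heat shock proteins are chaperones, and the inducible members of the Hsp70 and small Hsp families are switched on by the factor HSF-1 when proteins unfold, while constitutive members fold newly made proteins at all times.

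The libraries are called control 1 to 3 and thymus 1 to 3 by the replicate numbers of the labels. Library totals ran from 25222235 to 30153245 counts in the control and from 23867419 to 33447280 counts with desiccated thymus. Library thymus 3 stood apart in ribosomal RNA, which lacks a poly(A) tail, and in small nucleolar RNA. It had 14.7% of its counts in ribosomal RNA genes, against 0.486% to 1.72% in the other 5 libraries. Most of it, 13.9% of all counts, lay in rrn-3.1, a gene of the large ribosomal RNA. Small nucleolar RNA genes, whose transcripts also lack poly(A) tails, had 36.5 CPM (counts scaled to a common library total), computed outside ribosomal RNA genes, in that library and 6.30 to 14.6 in the other 11 of the series. For transfer RNA genes (0.709, against 0.483 to 1.69) and small nuclear RNA genes (1.42, against 0.551 to 1.53), library thymus 3 lay within the range of these 11. Over the 14610 tested genes its median absolute log2 difference from the other pair of desiccated thymus libraries was 0.0947, below the 0.102 to 0.168 of the other 5 libraries from the rest of their own group. On the second principal component of the 6 libraries, which held 17.7% of their variance, it lay at 32.7, with the other pair at 1.6 and 12.6 and the controls from -35.2 to -2.3. The first component held 47.8% of the variance. On it, control 1 to 3 lay at -53, 27.7 and -34.8 and thymus 1 to 3 at 8.8, 44.8 and 6.5. The groups overlapped there, with control 2 above thymus 1 and 3. Gene levels are in CPM of totals scaled by TMM, a method that sets libraries on 1 scale by the bulk of their genes, so that a high ribosomal RNA share does not lower every other gene.

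**Figure D1:**
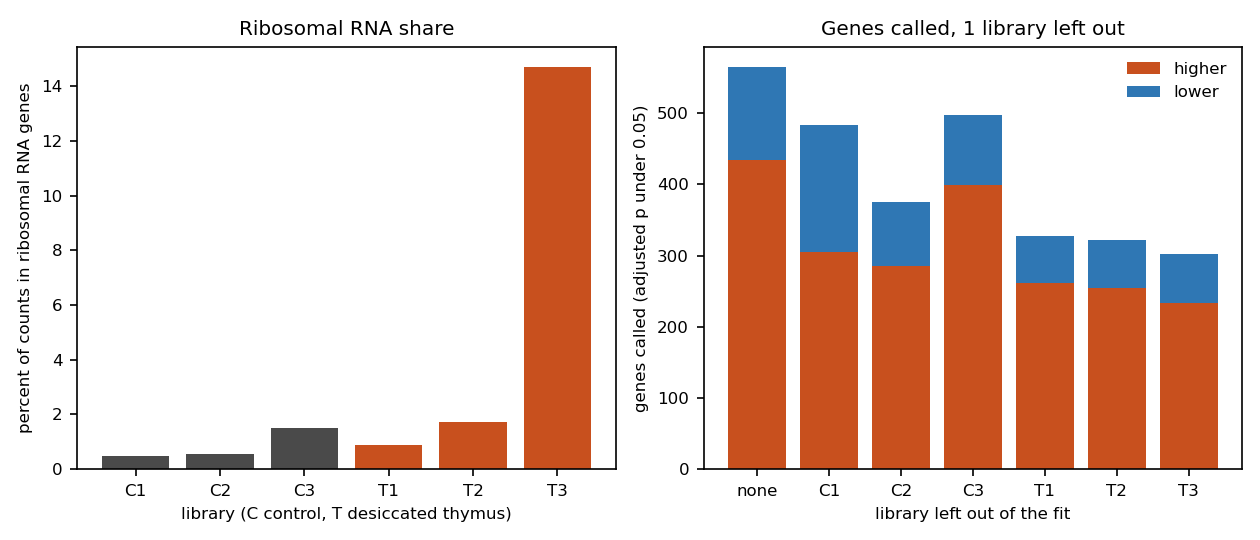
Share of counts in ribosomal RNA genes in each of the 6 libraries (left, in percent) and number of genes called higher or lower with desiccated thymus when no library or 1 library was left out of the fit (right). Library thymus 3 reaches 14.7%, and the number of called genes runs from 302 without it to 497 without control 3, against 565 with all libraries.

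Desiccated thymus was followed by higher RNA of some intestinal, transporter, acid phosphatase and C-type lectin genes and by lower RNA of some heat shock genes. Of 14610 genes, 434 rose and 131 fell (quasi-likelihood test of edgeR at a Benjamini-Hochberg adjusted p under 0.05), which is 2.97% and 0.897% of those tested and 3.87% in all. Most changes were small, with a median log2 fold change of 0.70 among the genes that rose and -0.45 among those that fell, and 85 of the 565 changed by less than 1.25-fold. At least 2-fold changes were found in 117 genes that rose and 29 that fell, 0.801% and 0.198% of the genes tested. The libraries of the 2 groups did not overlap in 564 of the 565 called genes, against 20.2% of all tested genes. The test selects genes whose groups lie apart, so this separation follows largely from the selection and is no separate support. The count of called genes was 328, 322 and 302 without thymus 1, 2 and 3, and 483, 375 and 497 without control 1, 2 and 3. Across these 6 fits, 168 of the 434 higher and 45 of the 131 lower genes kept their call in every one, and with ribosomal RNA genes left out, 424 and 125 of them were called.

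The 2 directions lay at different levels. Genes that rose had a median level of 9.68 CPM and genes that fell a median of 46.4 CPM, beside 9.95 CPM for all tested genes. Between 5 and 20 CPM, 7.12% of 2372 genes rose and 0.843% fell, whereas at 100 CPM and above 1.14% of 2709 genes rose and 1.70% fell. The share of tested genes that rose was 4.97% on the X chromosome and 4.01% on chromosome V, and 1.83% to 2.62% on the other 4 autosomes.

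**Figure D2:**
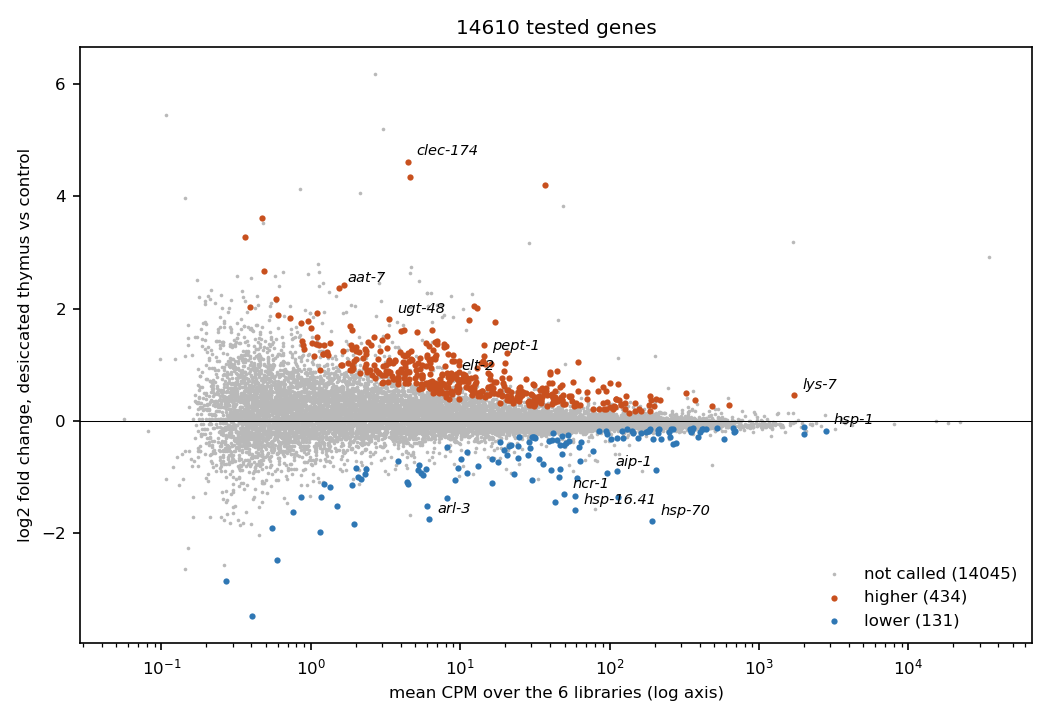
Mean level over the 6 libraries (CPM, log axis) against the log2 fold change with desiccated thymus for the 14610 tested genes, with genes called higher in orange, called lower in blue and not called in grey. Called genes that rose lie mostly at low and middle levels, and the lower genes include the abundant hsp-70 and hsp-1.

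Several heat shock genes fell. Of 30 cytosolic heat shock and co-chaperone genes tested, 11 fell and none rose (18 fell and none rose at an unadjusted p under 0.05; DESeq2 called 12 lower), with a median log2 fold change of -0.13 against 0.00 for all genes. That is 36.7% of the list, against 0.897% of all tested genes. The counts of this list stayed within 1.5 times of 11 in every alternative tried.

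The inducible Hsp70 gene hsp-70 was at 245, 287 and 358 CPM in control 1 to 3 and at 102, 64.3 and 92.2 CPM with desiccated thymus. All desiccated thymus libraries lay below all controls. The means were 296 ± 57.0 and 86.1 ± 19.6 CPM (SD, n = 3), a 3.44-fold decrease (log2 fold change -1.78, SE 0.250, edgeR adjusted p = 0.00696). The remaining 2 inducible Hsp70 genes, F44E5.4 and F44E5.5, are neighbouring and nearly identical, so reads may be split between them. F44E5.4 averaged 11.9 ± 1.59 CPM in the control and 4.45 ± 1.08 CPM with desiccated thymus, and F44E5.5 averaged 12.5 ± 1.75 and 5.91 ± 1.14 CPM. Summed over the 3 genes, the level was 265, 313 and 384 CPM in the control and 115, 74.2 and 101 CPM with desiccated thymus, again without overlap. The call of F44E5.5 ended when thymus 2 was left out (edgeR adjusted p = 0.0540).

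Among small heat shock genes, the neighbours hsp-16.41 and hsp-16.2, a pair that encodes inducible crystallin-type chaperones, fell 3.02-fold and 2.73-fold. hsp-16.41 was at 74.6, 95.6 and 95.2 CPM in the control and at 30.8, 24.8 and 32.3 CPM with desiccated thymus. hsp-16.2 was at 59.2, 67.4 and 63.6 CPM and at 23.6, 18.3 and 27.8 CPM. In both genes each desiccated thymus library lay below every control, but with thymus 2 left out hsp-16.41 no longer passed (edgeR adjusted p = 0.0519), and with thymus 1 left out hsp-16.2 did not (0.0511). Of 6 inducible small heat shock genes on the list, 2 had enough counts to be tested. They are near-identical to other copies, so reads may be shared between them.

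Constitutive chaperones fell by far smaller amounts. The major cytosolic Hsp70 gene hsp-1 was at 2930, 2938 and 3014 CPM in the control and 2548, 2676 and 2649 CPM with desiccated thymus, with no overlap. Its decrease was 1.13-fold (log2 fold change -0.17, SE 0.0368, edgeR adjusted p = 0.0143) and lost its call without thymus 1 (0.0722) or 3 (0.0528). hsp-110, which encodes a nucleotide exchange factor of Hsp70, fell from 647 ± 37.4 to 515 ± 8.03 CPM, and hsp-90 averaged 3359 ± 217 and 3051 ± 27.1 CPM without passing the test (edgeR adjusted p = 0.139). All 12 co-chaperone genes had a fitted change below 0, and 2 of them fell, namely the J-domain gene dnj-13 (431 ± 15.3 to 354 ± 11.1 CPM) and the BAG-domain gene unc-23 (45.1 ± 9.03 to 26.6 ± 1.84 CPM). The small heat shock genes hsp-17 (-0.61 log2) and sip-1 (-0.24 log2), the second known from embryos, fell as well, and sip-1 lost its call without any 1 library other than control 3 (edgeR adjusted p from 0.0633 to 0.141). The RNA of hsf-1 itself was 158 ± 7.10 CPM in the control and 156 ± 2.79 CPM with desiccated thymus, and that of its inhibitor hsb-1 was 52.1 ± 5.36 and 50.3 ± 1.33 CPM, neither of which passed (edgeR adjusted p = 0.884 and 0.768).

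Other protein quality control genes changed in smaller number. aip-1, the gene of a zinc finger protein that arsenite induces and that binds the proteasome, was at 131, 122 and 127 CPM in the control and at 69.8, 62.4 and 68.4 CPM with desiccated thymus. It fell 1.89-fold (log2 fold change -0.92, SE 0.0550, edgeR adjusted p = 2.83e-07), without overlap, and kept its call without any of the 6 libraries. aip-1 was the only 1 of 6 tested arsenite and proteasome stress genes that fell (16.7%, against 0.897% of all tested genes), and none rose. Of 33 proteasome subunit genes, 3 fell (pas-3, pas-5 and rpt-2, by 0.14 to 0.18 on the log2 scale) and all 33 had a fitted change below 0. The count was 0 without thymus 1 and 1 without thymus 3, 0 with library totals in place of TMM, 6 with DESeq2's size factors and 11 with DESeq2's test. The 3 made up 9.09% of the list, against 0.897% of all tested genes. Every alternative that left out 1 library ended the call of at least 1 of the 3 genes. In the unfolded protein responses of other compartments, hsp-6, the mitochondrial Hsp70, fell from 724 ± 29.9 to 630 ± 19.8 CPM, and xbp-1, a transcription factor of the endoplasmic reticulum response, fell from 228 ± 10.5 to 196 ± 2.44 CPM. The endoplasmic reticulum stress kinase gene pek-1 also fell (-0.33 log2), with its call lost without control 2 (edgeR adjusted p = 0.0724), control 3 (0.0502) or thymus 2 (0.0766). None of 80 ribosomal protein genes passed edgeR's test. At an unadjusted p under 0.05, 8 were lower and none higher, and DESeq2 called 1 lower. All 80 had a fitted change below 0, with a median log2 fold change of -0.09, the same as for the proteasome genes. Of 37 nuclear respiratory chain genes 31 lay below 0, of 28 oocyte and eggshell genes 25, and of 27 glycolysis genes 24. A lean below 0 was therefore not particular to proteasome or co-chaperone genes.

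**Figure D3:**
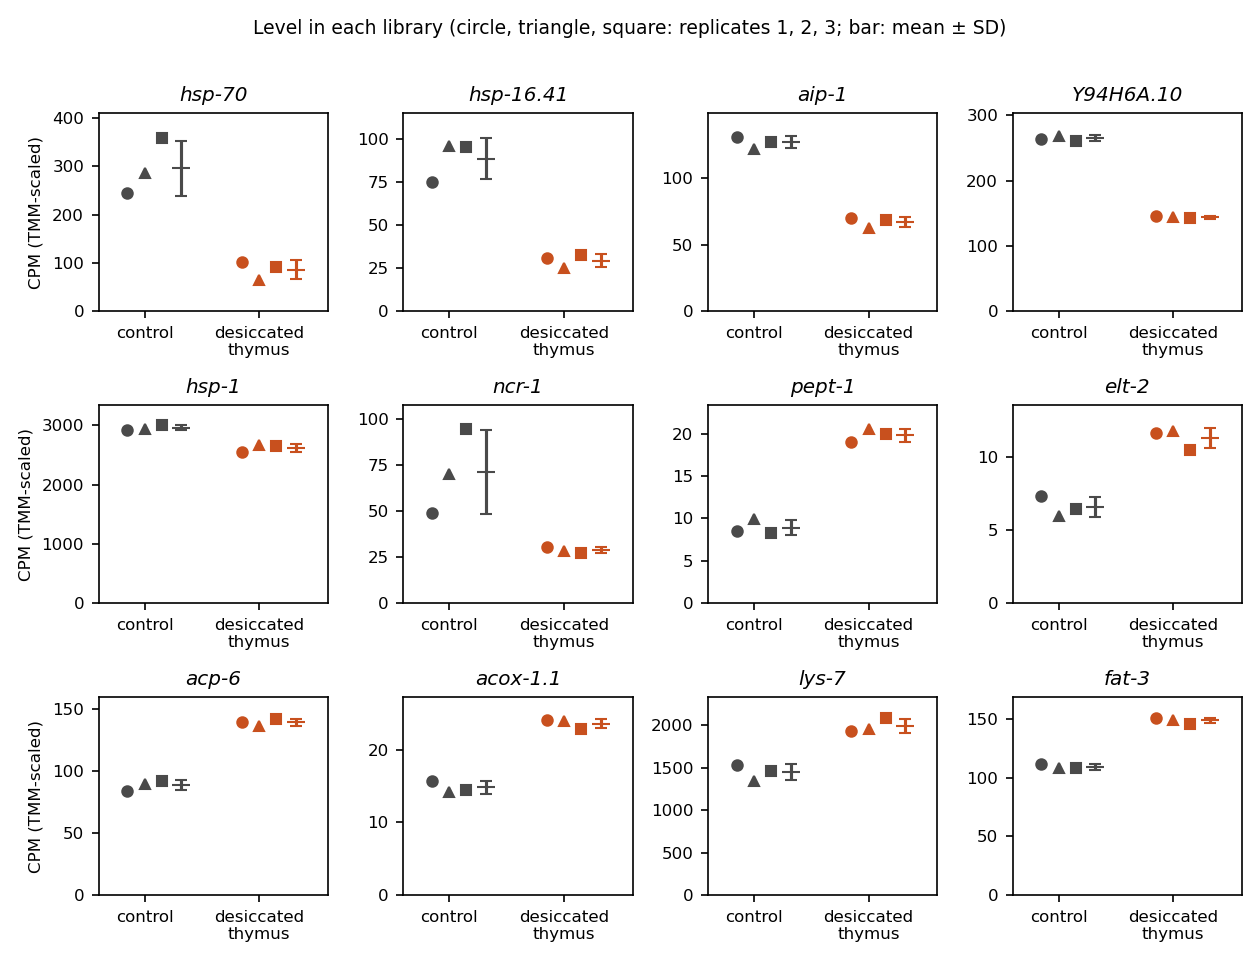
Levels (CPM) of 12 genes in each of the 3 control and 3 desiccated thymus libraries, with the mean ± SD of each group beside the points and every axis starting at 0. In each of the 12 genes the libraries of the 2 groups do not overlap, with hsp-70 at 245 to 358 CPM in the control and 64.3 to 102 CPM with desiccated thymus. All 12 are called genes, so this separation follows largely from how they were chosen.

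Some genes of intestinal identity rose. Of 29 such genes tested, 7 rose and 1 fell, with a median log2 fold change of 0.19, or 24.1% higher against 2.97% of all tested genes. The summed level of the list was 3065, 3153 and 3315 CPM in the control and 3459, 3758 and 3524 CPM with desiccated thymus, without overlap. In whole worms, more cells of a type and more RNA per cell cannot be told apart. Without thymus 2, 3 genes of the list rose.

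elt-2, the GATA factor gene of the intestine, was at 7.33, 5.97 and 6.42 CPM in the control and at 11.6, 11.8 and 10.5 CPM with desiccated thymus. It rose 1.73-fold (log2 fold change 0.79, SE 0.143, edgeR adjusted p = 0.00535) with no overlap, and it kept its call without any of the 6 libraries. elt-2 was the only 1 of 5 tested GATA factor and other regulator genes on the list that rose, and none fell. The median log2 fold change of the 5 was 0.09. Their summed level overlapped, at 55.3 to 61.2 CPM in the control and 58.3 to 64.4 CPM with desiccated thymus. At the brush border, eps-8, an actin regulator of microvilli, rose by a log2 fold change of 0.48, and ifc-2, an intestinal intermediate filament gene, rose from 58.3 ± 7.87 to 83.7 ± 7.74 CPM. The microvillar actin gene act-5 was at 88.6, 109 and 110 CPM in the control and at 109, 151 and 101 CPM with desiccated thymus, so its groups overlapped and it did not pass (edgeR adjusted p = 0.450). The sodium-proton exchanger gene nhx-2 rose from 7.81 ± 1.27 to 11.7 ± 0.168 CPM. ftn-1, which encodes the iron store protein ferritin, fell from 24.8 ± 5.45 to 16.3 ± 1.49 CPM. Calls were lost without thymus 2 for eps-8 (edgeR adjusted p = 0.0658), without thymus 2 (0.0526) or 3 (0.0535) for ifc-2, without thymus 1 (0.0756) or 3 (0.0558) for ftn-1, and without any 1 library other than control 2 for nhx-2 (0.0864 to 0.118).

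Some uptake genes rose as well. The lists share members, so their counts are not independent. pept-1, pgp-1 and pho-1 are counted in the intestinal list and again among the peptide transporters, ABC transporters and acid phosphatases. Of 27 amino acid and peptide transporter genes, 7 rose and none fell (10 rose at an unadjusted p under 0.05; DESeq2 called 7 higher and none lower), with a median log2 fold change of 0.37, which was 0.22 without control 1. The 7 made up 25.9% of the list, against 2.97% of all tested genes. This count stayed within 1.5 times of 7 in every alternative. pept-1, the intestinal transporter of di- and tripeptides, was at 8.45, 9.89 and 8.33 CPM in the control and at 19.0, 20.6 and 19.9 CPM with desiccated thymus. Its libraries lay in separate ranges and it rose 2.22-fold (log2 fold change 1.15, SE 0.182, edgeR adjusted p = 0.00415). A further peptide transporter gene of the family, pept-3, rose from 7.70 ± 0.455 to 13.2 ± 1.97 CPM. The amino acid transporter genes aat-7 (0.483 ± 0.254 to 2.60 ± 0.482 CPM) and aat-6 (2.71 ± 0.532 to 6.22 ± 1.44 CPM) rose by log2 fold changes of 2.37 and 1.21. glt-1, a glutamate transporter gene, rose from 30.3 ± 1.92 to 40.5 ± 0.774 CPM. Each of these 5 kept its call without any of the 6 libraries. aat-4 (1.07 log2) and the betaine transporter gene snf-3 (0.56 log2) complete the 7, and aat-4 lost its call without thymus 2 (edgeR adjusted p = 0.0518) and snf-3 without control 1 or any desiccated thymus library (0.0588 to 0.100).

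Of 52 ABC transporter genes, which encode pumps driven by ATP, 7 rose and none fell (15 rose and 2 fell at an unadjusted p under 0.05; DESeq2 called 8 higher). The 7 made up 13.5% of the list, against 2.97% of all tested genes. The count was 4 without control 1 or thymus 1 or 2, and 3 without thymus 3. pgp-1, a P-glycoprotein gene of the intestine, showed a 2.39-fold increase (log2 fold change 1.26, SE 0.135, edgeR adjusted p = 0.000132). haf-9, which encodes a transporter of gut granules, rose from 10.8 ± 0.631 to 19.8 ± 2.31 CPM and mrp-1, a multidrug resistance protein gene, from 20.1 ± 2.88 to 30.4 ± 1.00 CPM. These 3 genes did not overlap between groups and kept their calls without any of the 6 libraries. Of 46 genes of sugar, nucleoside and organic ion transport, 5 rose and none fell (11 rose and 2 fell at an unadjusted p under 0.05; DESeq2 called 6 higher and 1 lower), and they were oat-1, ent-4, slcf-1, mct-4 and hmit-1.3. These 5 made up 10.9% of the list, against 2.97% of all tested genes. That count was 2 without control 2 or thymus 1 or 3, and 1 without thymus 2. ent-4, of the equilibrative nucleoside transporter family, was at 9.21, 7.81 and 6.61 CPM in the control and 11.9, 14.6 and 13.6 CPM with desiccated thymus (log2 fold change 0.76, SE 0.171, edgeR adjusted p = 0.0224), and its call was lost without control 2 or 3 or thymus 2 or 3 (0.0722 to 0.0951).

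Digestive hydrolases were among the genes that rose. Of 17 gut acid phosphatase genes, 4 rose and none fell (10 were higher and none lower at an unadjusted p under 0.05; DESeq2 called 4 higher), with a median log2 fold change of 0.40. acp-6, an acid phosphatase gene, was at 84.0, 89.8 and 92.2 CPM in the control and at 139, 136 and 142 CPM with desiccated thymus. Its increase was 1.57-fold with no overlap (log2 fold change 0.65, SE 0.0529, edgeR adjusted p = 1.16e-05). pho-1, the intestinal acid phosphatase gene, rose from 7.55 ± 0.602 to 12.5 ± 2.20 CPM, with its call lost without thymus 2 (edgeR adjusted p = 0.0543). The 4 acid phosphatase genes that rose made up 23.5% of the list, against 2.97% of all tested genes. Their count was 1 without thymus 2 and 2 without thymus 3. Of 31 protease genes, 4 rose and none fell: pcp-3, cpr-4, cpz-2 and the pseudogene asp-11. These made up 12.9% of the list, against 2.97% of all tested genes. pcp-3, of the prolyl carboxypeptidase family, rose from 28.1 ± 4.92 to 51.9 ± 3.90 CPM (log2 fold change 0.88, SE 0.104, edgeR adjusted p = 0.000413), and the cathepsin B gene cpr-4 rose from 326 ± 18.1 to 422 ± 24.5 CPM. The count of proteases was 1 without control 1 or thymus 3 and 2 without control 2 or thymus 2, and cpr-4 lost its call without each of these 4 (0.0721 to 0.0921).

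Genes of nucleotide metabolism rose in small number. Of 29 purine and pyrimidine genes, 4 rose and none fell (6 rose and 5 fell at an unadjusted p under 0.05; DESeq2 called 4 higher and 2 lower). The 4 made up 13.8% of the list, against 2.97% of all tested genes. dpyd-1, dhp-1 and upb-1, which encode the 3 consecutive enzymes of pyrimidine breakdown, were 3 of the 4. dpyd-1, for dihydropyrimidine dehydrogenase, was at 24.8, 27.1 and 29.7 CPM in the control and at 34.4, 37.6 and 33.2 CPM with desiccated thymus. dhp-1, for dihydropyrimidinase, was at 14.4, 15.5 and 20.3 CPM and at 25.2, 23.5 and 24.6 CPM. upb-1, for beta-ureidopropionase, was at 52.2, 60.9 and 71.0 CPM and at 80.6, 79.0 and 81.8 CPM. In all 3 the desiccated thymus libraries lay above the controls, with log2 fold changes of 0.37, 0.55 and 0.39 (edgeR adjusted p = 0.0148, 0.0385 and 0.0330). A paralog of dhp-1, dhp-2, overlapped between groups (0.25 log2, edgeR adjusted p = 0.652). The calls were lost without control 2 or thymus 2 for dpyd-1 (0.0525 and 0.0766) and without any 1 library other than control 3 for dhp-1 and upb-1 (0.0556 to 0.141). ppat-1, the entry enzyme of purine synthesis, was the fourth (0.66 log2). The list counted 1 lower gene without control 1, and 1 higher gene without control 1 or 2 or thymus 3, 2 without thymus 1, and 0 without thymus 2.

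Of 13 nuclease genes, 2 rose and none fell, or 15.4% higher against 2.97% of all tested genes. endu-2, an endoribonuclease gene, was at 46.5, 44.0 and 47.5 CPM in the control and at 65.4, 60.6 and 60.4 CPM with desiccated thymus (log2 fold change 0.43, SE 0.0670, edgeR adjusted p = 0.00204). enpp-1, of the nucleotide phosphodiesterase family, rose from 7.74 ± 0.860 to 13.7 ± 1.53 CPM. Both kept their calls without any of the 6 libraries, and the exons of endu-2 overlap those of kqt-2. Among 33 genes of amino acid breakdown, the 2 that rose were gldc-1 (40.7 ± 6.28 to 56.5 ± 0.734 CPM) and gcsh-1 (log2 fold change 1.45), which encode the P and H proteins of the glycine cleavage system. These 2 made up 6.06% of the list, against 2.97% of all tested genes. gcsh-1 lost its call without control 2 (edgeR adjusted p = 0.0644) or thymus 1 (0.0714), and the count for the list was 1 in each of these 2 fits and 4 without control 3, and 3 genes were lower without control 1.

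Lipid genes moved in both directions. Among the fatty acid breakdown genes 15.1% rose and 1.89% fell, against 2.97% and 0.897% of all tested genes. Of 53 genes of fatty acid breakdown, 8 rose and 1 fell (12 each way at an unadjusted p under 0.05; DESeq2 called 9 higher and 6 lower), with a median log2 fold change of -0.01. Without thymus 2 or 3, 5 rose, and the 1 that fell, acs-19 of the acyl-CoA synthetase family, lost its call without any 1 library other than control 2 (edgeR adjusted p from 0.0522 to 0.179). Of the 8, 5 act in or feed the peroxisomal beta-oxidation that shortens the fatty acid side chains of ascaroside pheromones, namely the acyl-CoA oxidase genes acox-1.1, acox-1.6 and acox-3, the dehydrogenase gene dhs-28 and the thiolase gene daf-22. acox-1.1 was at 15.7, 14.2 and 14.4 CPM in the control and at 24.1, 24.0 and 22.9 CPM with desiccated thymus, a 1.60-fold increase without overlap (log2 fold change 0.68, SE 0.0784, edgeR adjusted p = 0.000209). acox-3 rose from 31.0 ± 2.25 to 44.6 ± 3.87 CPM, daf-22 from 28.3 ± 1.55 to 35.1 ± 0.829 CPM and dhs-28 from 71.4 ± 4.77 to 83.1 ± 2.12 CPM. acox-1.6 rose from 9.88 ± 1.47 to 14.9 ± 0.893 CPM, with its call lost without thymus 2 (0.0625) or 3 (0.0725). The hydratase gene of that pathway, maoc-1, overlapped between groups (21.8 ± 4.21 and 24.5 ± 0.811 CPM, edgeR adjusted p = 0.471), and daf-22 and dhs-28 lost their calls without any 1 library other than control 3 (edgeR adjusted p from 0.0573 to 0.121). pmp-4, an ABC transporter gene of the peroxisomal family, rose from 13.4 ± 1.68 to 18.9 ± 0.868 CPM, with its call lost without thymus 3 (0.0642). The others of the 8 were cpt-5, of the carnitine palmitoyltransferase family (4.30 ± 0.748 to 9.30 ± 0.361 CPM), ech-1.1, of the mitochondrial trifunctional enzyme (3.23 ± 0.349 to 5.92 ± 0.663 CPM), and acs-22, a fatty acid transport protein gene (80.6 ± 4.73 to 101 ± 2.86 CPM).

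On the synthetic side, 2 of 28 genes rose and none fell (9 higher and 1 lower at an unadjusted p under 0.05; DESeq2 called 4 higher), and 1 was lower without control 1. The 2 that rose made up 7.14% of the list, against 2.97% of all tested genes. fat-3, the delta-6 desaturase gene that opens the path to long polyunsaturated fatty acids, was at 112, 108 and 108 CPM in the control and at 151, 149 and 146 CPM with desiccated thymus. The increase was 1.36-fold without overlap (log2 fold change 0.44, SE 0.0490, edgeR adjusted p = 0.000169). sbp-1, the SREBP factor gene of lipid synthesis, rose from 37.8 ± 4.83 to 50.1 ± 0.828 CPM and lost its call without thymus 2 (0.0567). The delta-9 desaturase genes fat-6 (541 ± 83.0 and 479 ± 49.7 CPM) and fat-7 (57.8 ± 2.10 and 65.4 ± 5.39 CPM) did not pass (edgeR adjusted p = 0.495 and 0.457). Of 12 sterol genes, 2 fell and none rose (3 each way at an unadjusted p under 0.05; DESeq2 called 1 higher and 3 lower), while 7 of the 12 had a fitted change above 0 and the median was 0.11, or -0.06 without control 1. Among the sterol genes 16.7% fell, against 0.897% of all tested genes. ncr-1, the homolog of the human Niemann-Pick C1 cholesterol transporter, was at 49.0, 70.0 and 94.2 CPM in the control and at 30.3, 28.3 and 27.1 CPM with desiccated thymus. The control libraries were spread over a wide range but all lay above the desiccated thymus libraries, and the decrease was 2.48-fold (log2 fold change -1.31, SE 0.217, edgeR adjusted p = 0.0117). scp-1, of the SCAP family of sterol sensors that hold SREBP, fell from 153 ± 3.29 to 132 ± 7.45 CPM, and both genes lost their calls without thymus 2 or 3 (0.0519 to 0.0617), which left 0 on the list in each of these 2 fits, and 1 sterol gene was higher without control 3.

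Yolk protein genes showed no call. vit-2 averaged 18596 ± 2314 CPM in the control and 18198 ± 1085 CPM with desiccated thymus, and vit-6 averaged 22153 ± 3242 and 21993 ± 793 CPM. vit-1 was at 260, 335 and 297 CPM and at 395, 442 and 450 CPM, without overlap, but it did not pass (log2 fold change 0.53, edgeR adjusted p = 0.117). 2 other genes of the list of 11 rose, dsc-4 (28.4 ± 5.55 to 42.6 ± 3.84 CPM), which encodes the microsomal triglyceride transfer protein that loads lipoproteins, and ceh-60 (6.37 ± 0.407 to 8.97 ± 0.499 CPM), a homeodomain factor gene of yolk expression. These 2 made up 18.2% of the list, against 2.97% of all tested genes. dsc-4 lost its call without thymus 1 (0.0614) or 2 (0.0600) and ceh-60 without any 1 of the 6 libraries (edgeR adjusted p from 0.0521 to 0.109), so that the list counted 0 or 1 in each of these fits.

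Detoxification families rose in part. Of 34 carboxylesterase genes, 5 rose and none fell (15 rose at an unadjusted p under 0.05; DESeq2 called 6 higher and none lower), with 31 of 34 fitted above 0, against 49.4% of all tested genes, and a median of 0.28. Of the 5, cest-10 was at 2.11, 2.08 and 1.99 CPM in the control and at 5.60, 7.61 and 5.91 CPM with desiccated thymus (log2 fold change 1.62, SE 0.182, edgeR adjusted p = 0.000194). The 5 made up 14.7% of the list, against 2.97% of all tested genes. The count was 2 without thymus 1 and 3 without any other 1 of the 6. Cytochrome P450 genes rose in 5 of 55 cases, with none lower (10 rose and 2 fell at an unadjusted p under 0.05; DESeq2 called 6 higher and 1 lower), and 4 to 6 rose in every alternative, with 1 lower without control 1. Among them were cyp-13A2 (6.57 ± 0.908 to 13.1 ± 1.71 CPM) and cyp-35A2 (5.80 ± 0.991 to 10.5 ± 0.512 CPM). The 5 P450 genes that rose made up 9.09% of the list, against 2.97% of all tested genes.

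Of 58 UDP-glucuronosyltransferase genes, whose products attach sugars to foreign compounds, 5 rose and 2 fell. That is 8.62% and 3.45%, against 2.97% and 0.897% of all tested genes. ugt-48 was at 1.44, 1.62 and 1.41 CPM in the control and at 5.60, 5.62 and 4.43 CPM with desiccated thymus, a 3.51-fold increase without overlap (log2 fold change 1.81, SE 0.175, edgeR adjusted p = 4.50e-05). ugt-13 fell from 1.83 ± 0.479 to 0.477 ± 0.148 CPM and ugt-51 from 12.6 ± 1.61 to 7.82 ± 1.06 CPM. The higher count was 3 without control 1 or 3 or thymus 2 and 2 without thymus 1 or 3, and the lower count was 0 without thymus 2 and 1 without control 2 or 3 or thymus 1 or 3. Of 39 glutathione S-transferase genes none rose (4 were higher at an unadjusted p under 0.05; DESeq2 called 1 higher) and gst-1 (218 ± 8.86 to 173 ± 7.98 CPM) and gst-7 (149 ± 7.89 to 132 ± 1.46 CPM) fell. The 2 that fell made up 5.13% of the list, against 0.897% of all tested genes. gst-7 lost its call without control 2 or any desiccated thymus library (0.0606 to 0.118), which left 1 on the list, and 1 gene of the list was higher without thymus 2. Of 26 antioxidant enzyme genes the 1 that fell was gsr-1, for glutathione reductase (174 ± 5.84 to 151 ± 1.68 CPM), which lost its call without control 2 or 3 or thymus 1 or 3 (0.0599 to 0.0723). The antioxidant list had 3.85% lower, against 0.897% of all tested genes. It counted 2 lower genes without control 1 and 0 without control 2 or thymus 1 or 3.

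Among 182 nuclear hormone receptor genes, a family of ligand-regulated factors that is large in worms, 6 rose and 1 fell, or 3.30% and 0.549%, close to the 2.97% and 0.897% of all tested genes. nhr-43 was at 2.71, 3.56 and 3.17 CPM in the control and at 8.21, 10.3 and 11.1 CPM with desiccated thymus, a 3.08-fold increase without overlap (log2 fold change 1.62, SE 0.158, edgeR adjusted p = 4.50e-05). nhr-14 rose by a log2 fold change of 0.84. The count of receptors that rose was 3 without control 2, and the count that fell was 0 without any 1 library other than control 3. In the insulin list, ins-7, an insulin-like peptide gene of the intestine and neurons, rose from 8.26 ± 2.28 to 13.9 ± 0.423 CPM. Its call was lost without control 2 or 3 or thymus 1 or 2 (edgeR adjusted p from 0.0614 to 0.0763). Of the 16 tested DAF-16 target genes on this list, 2 rose (ins-7 and lys-7) and 1 fell (sip-1). These were 12.5% and 6.25%, against 2.97% and 0.897% of all tested genes, and DESeq2 called 3 higher and 3 lower. None of the 13 pathway genes passed (2 higher and 3 lower at an unadjusted p under 0.05, and 0 with DESeq2).

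**Figure D4:**
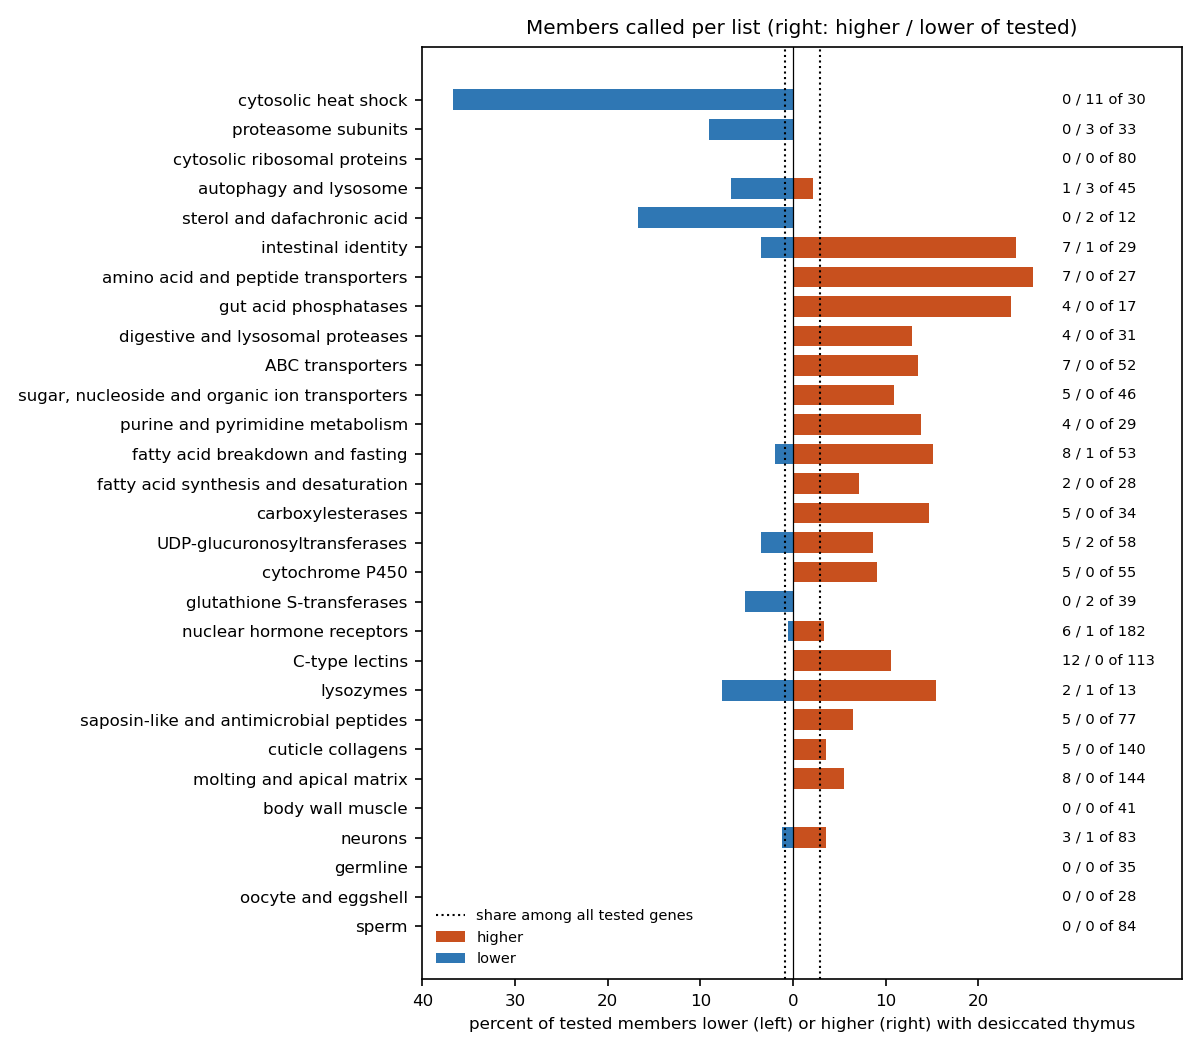
Percent of the tested members of 29 gene lists that were lower (left, blue) or higher (right, orange) with desiccated thymus, with the number higher, lower and tested printed at the right and dotted lines at the shares among all tested genes (0.897% lower and 2.97% higher). Heat shock genes stand out to the left at 36.7%. Amino acid and peptide transporter, acid phosphatase and intestinal genes reach 23.5% to 25.9% to the right. ABC transporters reach 13.5%, and sugar, nucleoside and organic ion transporters 10.9%. Lists share members, among them pept-1, pgp-1, pho-1 and ncr-1.

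Some genes of the defence against microbes rose. Of the 113 tested genes for C-type lectins, 12 went up and none went down (39 rose and 3 fell at an unadjusted p under 0.05; DESeq2 called 16 higher and 1 lower), with a median log2 fold change of 0.29. The 12 made up 10.6% of the list, against 2.97% of all tested genes. The count was 4 without thymus 3, 6 without thymus 2, and 7 without any 1 of the 3 controls. clec-165 was at 1.16, 1.55 and 1.41 CPM in the control and at 3.78, 4.20 and 3.83 CPM with desiccated thymus (log2 fold change 1.50, SE 0.242, edgeR adjusted p = 0.00281), and its neighbour clec-166 rose from 7.66 ± 0.706 to 11.6 ± 0.236 CPM. Both kept their calls without any of the 6 libraries, and the exons of clec-165 overlap those of F38A1.9. The summed level of the 113 lectin genes overlapped, at 4813, 4568 and 4696 CPM in the control and 4906, 4871 and 4731 CPM with desiccated thymus.

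Lysozymes, which cleave bacterial cell walls, had a separate summed level of 2586, 2427 and 2609 CPM in the control and 3057, 3121 and 3204 CPM with desiccated thymus. lys-7 made up most of this, with 1532, 1344 and 1462 CPM in the control and 1937, 1952 and 2084 CPM with desiccated thymus, a 1.38-fold increase without overlap (log2 fold change 0.46, SE 0.0514, edgeR adjusted p = 0.000363). Of the 13 lysozyme genes lys-4 also rose (97.1, 63.6 and 70.8 to 122, 121 and 126 CPM), with its call lost without any 1 library other than control 1 (0.112 to 0.126), leaving 1 on the list, and the invertebrate-type ilys-4 fell from 6.74 ± 0.619 to 3.66 ± 0.240 CPM. Among the lysozyme genes 15.4% rose and 7.69% fell, against 2.97% and 0.897% of all tested genes. Of 77 saposin-like and antimicrobial peptide genes 5 rose and none fell, or 6.49% higher against 2.97% of all tested genes. At an unadjusted p under 0.05, 19 rose and 2 fell, and DESeq2 called 9 higher and 1 lower. The count was 0 without thymus 3, 1 without control 2, and 2 without control 3 or thymus 1. It was 3 without thymus 2, where 1 gene was also lower. Of 165 F-box and infection response genes 9 rose and 1 fell, or 5.45% and 0.606%, against 2.97% and 0.897% of all tested genes. Their median log2 fold change was -0.01, and 86 of the 165 were fitted below 0. irg-5 is counted both on this list and among the saposin-like and antimicrobial peptide genes. Of the 9, fbxa-72 (1.66 ± 0.151 to 4.83 ± 1.32 CPM), fbxa-54 (3.51 ± 1.52 to 8.96 ± 1.68 CPM) and pals-16 (1.23 ± 0.371 to 2.95 ± 0.328 CPM) kept their calls without any of the 6. The higher count was 4 without control 1 or thymus 1 and 5 without control 3 or thymus 3, and the lower count was 0 without any desiccated thymus library.

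A few genes with large fold changes differed widely in level between the desiccated thymus libraries. clec-174 was at 0.319, 0.429 and 0.306 CPM in the control and at 15.5, 1.54 and 8.54 CPM with desiccated thymus (log2 fold change 4.62, SE 0.926, edgeR adjusted p = 0.0297), with its call lost without any control library or without thymus 3 (0.0870 to 0.107). The same order of replicates, 1 above 3 above 2, was seen in irg-5, an infection response gene, at 14.0, 6.49 and 12.6 CPM against 4.54, 4.85 and 4.01 CPM in the control, whose call was lost without control 1 or 3 or thymus 1 or 3 (0.0547 to 0.0573). It was also seen in 3 genes chosen after their values were seen: Y47H9C.1 at 119, 22.2 and 68.3 CPM against 2.90 to 4.98 CPM, C15B12.8 at 15.6, 1.54 and 9.28 CPM against 0.198 to 0.650 CPM, and irg-4 at 17.8, 3.74 and 8.17 CPM against 1.99 to 2.24 CPM. Y47H9C.1 rose (4.21 log2, edgeR adjusted p = 0.0108) and lost its call without control 2 (0.0533), C15B12.8 rose (4.35 log2, edgeR adjusted p = 0.0448) and lost it without any 1 library other than thymus 2 (0.0994 to 0.150), and irg-4 did not pass (2.28 log2, edgeR adjusted p = 0.0581). In all 5 genes the lowest desiccated thymus library was above every control.

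Structural and other tissues gave few calls. Among 140 collagen genes of the cuticle, 5 passed, all of them higher, 3.57% against 2.97% of all tested genes, although the median log2 fold change of the list was 0.58. That median was 1.31 without control 2, 0.33 without control 1 and 0.19 without thymus 2. The summed collagen level overlapped, at 1472, 2428 and 1729 CPM in the control and 2148, 2576 and 2149 CPM with desiccated thymus, and the count was 3 without thymus 3. col-143 was at 68.7, 76.4 and 68.6 CPM in the control and at 115, 103 and 108 CPM with desiccated thymus (log2 fold change 0.61, SE 0.0544, edgeR adjusted p = 1.73e-05), and col-101 rose from 76.9 ± 8.13 to 111 ± 5.24 CPM. Of 144 molting and apical matrix genes 8 rose and none fell (38 rose at an unadjusted p under 0.05; DESeq2 called 15 higher), among them the astacin protease genes nas-37 (7.50 ± 0.836 to 12.5 ± 0.840 CPM), which acts in shedding the old cuticle, and nas-11 (43.9 ± 2.26 to 70.6 ± 4.98 CPM). The 8 made up 5.56% of the list, against 2.97% of all tested genes. Their count was 3 without control 1, 5 without control 2 or thymus 3, and 4 without thymus 1 or 2.

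Markers of other tissues were also listed. By edgeR's test none passed among 35 germline genes (1 higher and 1 lower at an unadjusted p under 0.05; 0 with DESeq2), 28 oocyte and eggshell genes (0 and 10; DESeq2 called 3 lower), 41 body wall muscle genes (0 and 2; DESeq2 called 1 lower), 84 sperm genes (1 and 0; 0 with DESeq2), 15 pharynx and gland genes (1 and 0; DESeq2 called 1 higher) and 20 hypodermis genes (5 and 0; DESeq2 called 1 higher). Leaving out 1 library gave calls in some of these lists, with 3 muscle genes lower without control 1, 1 pharynx gene higher without control 2, and 1 sperm and 1 hypodermis gene higher without control 3, and with the replicate number as a block 1 muscle gene was lower and 1 pharynx and 1 hypodermis gene higher. The summed germline level was 12929 to 13515 CPM in the control and 12694 to 13045 CPM with desiccated thymus. The median log2 fold change of the sperm list was 0.09, but 3.17 without control 2 and -0.22 without thymus 2. Its summed level was 378, 469 and 401 CPM in control 1 to 3 and 408, 477 and 413 CPM in thymus 1 to 3. Of 83 neuronal genes 3 rose and 1 fell, or 3.61% and 1.20%, close to the 2.97% and 0.897% of all tested genes. The higher count was 0 without control 2 or thymus 1 or 2 and 1 without control 3. The 1 that fell was kpc-1, a proprotein convertase gene of the furin family, at 72.3, 77.7 and 102 CPM in the control and 36.0, 27.2 and 36.2 CPM with desiccated thymus (log2 fold change -1.34, SE 0.183, edgeR adjusted p = 0.00456), and its exons overlap those of scrm-4.

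Among all genes, the smallest adjusted p belonged to Y94H6A.10, which was at 264, 269 and 261 CPM in the control and 146, 144 and 142 CPM with desiccated thymus (log2 fold change -0.87, SE 0.0437, edgeR adjusted p = 4.38e-08). F19B2.5 fell from 163 ± 10.1 to 63.8 ± 8.52 CPM and R11A5.3 from 22.4 ± 3.32 to 10.5 ± 0.910 CPM. dap-1, the homolog of the human death-associated protein gene DAP, fell from 300 ± 25.7 to 227 ± 6.94 CPM, and its neighbour T28F4.4 from 41.1 ± 3.52 to 19.7 ± 1.40 CPM, with exons that overlap those of T28F4.8. Among the genes that rose with small p were T05A12.4 (31.1 ± 2.33 to 57.7 ± 4.68 CPM, edgeR adjusted p = 5.31e-06), ndg-4 (31.6 ± 1.54 to 50.9 ± 1.01 CPM), F08F3.4 (8.16 ± 0.318 to 20.7 ± 2.46 CPM) and the pseudogene Y102A5C.5 (4.76 ± 0.451 to 19.9 ± 4.29 CPM). Each of these 9 genes kept its call without any of the 6 libraries. The most abundant genes that passed included ant-1.1, an ADP/ATP carrier gene of mitochondria (2070 ± 32.4 to 1912 ± 49.9 CPM), which lost its call without any 1 of the 6 libraries (edgeR adjusted p from 0.0587 to 0.167).

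Some called genes lay side by side on the chromosomes (WBcel235). Neighbouring tested genes that rose formed 29 pairs and 2 runs of 3, and those that fell formed 5 pairs and 1 run of 4. The run of 4 lies on chromosome II at positions 14600902 to 14610554 and holds tps-2, a trehalose-6-phosphate synthase gene, pugs-2, the small nucleolar RNA gene F19H8.7 and arl-3, a small GTPase gene of cilia. arl-3 was at 8.49, 9.26 and 10.9 CPM in the control and at 3.37, 2.45 and 2.54 CPM with desiccated thymus, a 3.35-fold decrease (log2 fold change -1.75, SE 0.217, edgeR adjusted p = 0.000423). tps-2 fell from 145 ± 36.8 to 78.6 ± 2.04 CPM, pugs-2 from 8.97 ± 3.91 to 3.09 ± 0.653 CPM and F19H8.7 from 0.999 ± 0.219 to 0.185 ± 0.0600 CPM. The exons of arl-3 overlap those of tps-2, and the sources used here do not say whether counting used strand, so reads of such genes cannot be told apart. tps-2 lost its call without control 2 or any desiccated thymus library (0.0597 to 0.0838) and pugs-2 without control 2 or thymus 2 or 3 (0.0725 to 0.0895). The run of 3 on chromosome V at 16926922 to 16930063 holds Y102A5C.36, Y102A5C.5 and Y102A5C.6, with log2 fold changes of 2.43, 2.05 and 2.01. On the X chromosome ets-4, an ETS factor gene, whose exons overlap those of its neighbour ceh-60, was at 10.6, 11.5 and 12.4 CPM in the control and at 21.7, 18.4 and 20.8 CPM with desiccated thymus (log2 fold change 0.82, SE 0.111, edgeR adjusted p = 0.000779).

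In direct tests against the extracts, 116 genes were higher and 61 lower with desiccated thymus than with the cytoplasmic extract, 0.794% and 0.418% of the genes tested (1.21% in all), and with library totals in place of TMM the split turned to 52 higher and 90 lower. The total of 177 was 58, 75 and 69 without thymus 1, 2 and 3, and 91, 48 and 85 without cytoplasmic extract replicates 1, 2 and 3. Against the nuclear extract, 1 gene was higher and 23 were lower with desiccated thymus, 0.00684% and 0.157% (0.164% in all), and the total of 24 was 8, 21 and 11 without thymus 1, 2 and 3 and 15, 6 and 15 without nuclear extract replicates 1, 2 and 3. Against the control, 104 genes (0.712%) passed for the cytoplasmic and 1943 (13.3%) for the nuclear extract. All folds against the control share the same 3 control libraries and are given side by side only.

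None of the 30 heat shock genes passed edgeR's test between desiccated thymus and either extract. At an unadjusted p under 0.05, 1 was higher and 3 lower than with the cytoplasmic extract and 2 higher and 1 lower than with the nuclear extract, and DESeq2 called 0 in both. hsp-70 had log2 fold changes against the control of -1.78 with desiccated thymus, -1.32 with the cytoplasmic and -2.11 with the nuclear extract, and F44E5.4 had -1.38, -1.41 and -1.40. aip-1 had -0.92, -0.71 and -0.96. The direct log2 differences of hsp-70 were -0.46 from the cytoplasmic extract (SE 0.246, edgeR adjusted p = 0.630) and 0.33 from the nuclear extract (SE 0.249, edgeR adjusted p = 0.623), so differences of that size were not detectable here.

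Of the 29 genes of intestinal identity, 3 were higher with desiccated thymus than with the cytoplasmic extract and none was lower (15 higher and 1 lower at an unadjusted p under 0.05; DESeq2 called 5 higher), and they were elt-2, pho-1 and pgp-1. The count was 1 without thymus 1 or 3 or cytoplasmic extract replicate 2, and 2 without thymus 2 or cytoplasmic extract replicate 3 and with library totals. Against the nuclear extract, none of the 29 was higher with desiccated thymus and 2 were lower. At an unadjusted p under 0.05, 1 was higher and 7 lower, and DESeq2 called 4 lower. The median log2 fold change of the list against the control was 0.19 with desiccated thymus, 0.04 with the cytoplasmic and 0.39 with the nuclear extract. elt-2 had log2 fold changes against the control of 0.79 with desiccated thymus, 0.14 with the cytoplasmic and 0.66 with the nuclear extract, and its direct difference from the cytoplasmic extract was 0.65 (edgeR adjusted p = 0.0345). pho-1 had 0.73, -0.24 and 1.00, with a direct difference of 0.97 (edgeR adjusted p = 0.00741). pgp-1 had 1.26, 0.54 and 2.08, with a direct difference of 0.72 (0.0137). On other lists, cyp-13A2 had 1.00, -0.07 and 0.78, with a direct difference of 1.07 (0.00746), and aat-7 had 2.37, 0.70 and 2.26, with 1.67 (0.0189). Of these 5 genes, pho-1 and cyp-13A2 kept the call against the cytoplasmic extract with library totals and without any 1 library of the 2 groups. The call of elt-2 was lost with library totals (0.0879) and without any 1 library other than cytoplasmic extract replicate 1 (0.0707 to 0.156), that of pgp-1 without thymus 1 or 3 or cytoplasmic extract replicate 2 (0.0647 to 0.0852), and that of aat-7 without thymus 2 or 3 or cytoplasmic extract replicate 2 or 3 (0.0673 to 0.104). T05A12.4 had 0.89, 1.04 and 0.89, with direct differences of -0.14 (SE 0.0655) and 0.01 (SE 0.0658) from the cytoplasmic and the nuclear extract. fat-3 had 0.44, 0.46 and 0.60, with direct differences of -0.02 (SE 0.0487) and -0.16 (SE 0.0487). None of the 4 direct differences of T05A12.4 and fat-3 passed (edgeR adjusted p from 0.195 to 0.984), which does not show that the diets acted alike.

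Several cuticle genes were lower than with the nuclear extract. Of the 140 collagen genes 6 were lower with desiccated thymus and none was higher (27 lower and 2 higher at an unadjusted p under 0.05; DESeq2 called 12 lower). col-143 had log2 fold changes against the control of 0.61 with desiccated thymus and 1.19 with the nuclear extract (direct difference -0.58, edgeR adjusted p = 0.000252), and col-101 had 0.53 and 1.11 (-0.59, 0.00197). col-95, col-106, col-122 and col-184 were the other 4, with direct differences of -0.50, -0.38, -0.49 and -0.49. Of the 6, col-184 lost its call without any 1 library other than nuclear extract replicate 1 (0.0633 to 0.157), and the other 5 kept theirs without any 1 library of the 2 groups. pgp-1 was also lower than with the nuclear extract (-0.83, edgeR adjusted p = 0.00801), as were 4 neighbouring genes of the nspc family, nspc-16 to nspc-19 (-0.83 to -1.15), and the hedgehog-related genes grd-10 and grd-13 (-2.51 and -2.62). pgp-1 kept this call without any 1 library of the 2 groups, whereas each of the nspc and grd genes lost it without at least 5 of the 6 (edgeR adjusted p from 0.0508 to 0.204). col-106, col-122, col-184 and these nspc and grd genes were chosen after their values were seen.

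3 genes differed in 1 direction from all 3 other groups. set-25, which encodes a histone H3 lysine 9 methyltransferase, was at 28.9, 27.0 and 28.3 CPM in the control and at 35.4, 37.8 and 33.4 CPM with desiccated thymus. It was higher than the control by 0.34 on the log2 scale (edgeR adjusted p = 0.0270), than the cytoplasmic extract by 0.41 (0.0219) and than the nuclear extract by 0.45 (0.0371), and its call against the control was lost without control 2 or 3 or thymus 1 or 2 (0.0540 to 0.121). The pseudogene math-27 was lower, at 49.9, 51.5 and 55.8 CPM in the control and 30.3, 26.6 and 29.2 CPM with desiccated thymus, with differences of -0.87 (edgeR adjusted p = 1.34e-05), -0.77 (0.000423) and -0.42 (0.0371) from the control, the cytoplasmic and the nuclear extract. daao-1, a D-amino acid oxidase gene, had log2 differences of -0.56 (edgeR adjusted p = 0.0145), -0.59 (0.0254) and -0.67 (0.0371) from these groups, at 12.2, 13.3 and 13.8 CPM in the control and 8.45, 7.86 and 10.5 CPM with desiccated thymus, and lost its call against the control without thymus 1 (0.0751) or 2 (0.0746). Without 1 library of the 2 groups compared, the calls of these 3 genes against the extracts were lost in at least 4 of the 6 fits each, except that math-27 kept its call against the cytoplasmic extract in all 6, and with library totals set-25 lost both calls (edgeR adjusted p = 0.147 and 0.0957).

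**Figure D5:**
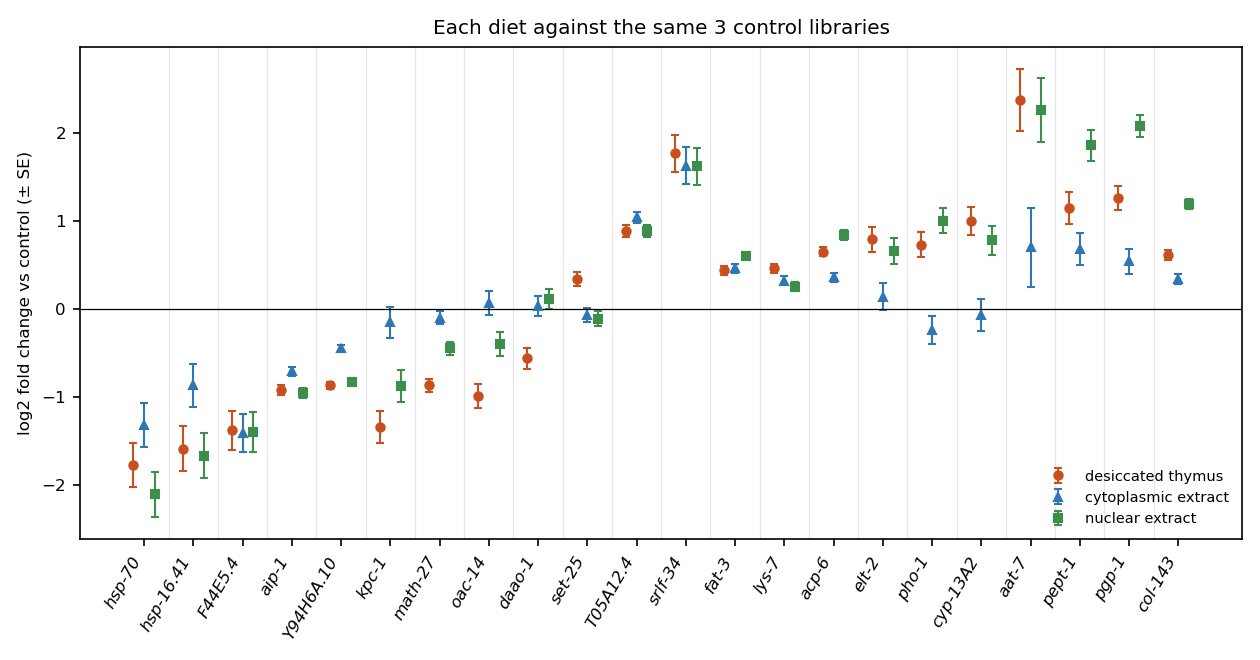
Log2 fold change against the control (± SE) of 22 genes for desiccated thymus (circles), the cytoplasmic extract (triangles) and the nuclear extract (squares), all against the same 3 control libraries. hsp-70 runs from -1.32 to -2.11 in the 3 diets, while daao-1 and oac-14 lie at -0.56 and -0.99 with desiccated thymus and at 0.03 and 0.07 with the cytoplasmic extract.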

How the data were processed

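Per the labels' protocols, total RNA of whole worms was enriched with oligo(dT) beads and sequenced as read pairs, although the labels' molecule field says nuclear RNA. The authors deposited integer counts of reads for every gene, produced with Trimmomatic, STAR, featureCounts and DESeq2, per the submitters' processing notes, which give no versions. No build is named in the sources used here. Of 46929 genes, 46925 were matched by identifier to RefSeq's WBcel235 table, and 98.6% of these had the same start, so coordinates are given as WBcel235. How strand and multiply matching reads were handled is not given in the sources used here, which leaves near-identical copies and overlapping genes uncertain. Columns were tied to samples through diet initials and replicate numbers, which fit a single title each, so this mapping is inferred from names.

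Low genes were removed with filterByExpr (minimum count 10, by group). All 12 libraries were fitted with edgeR 4.0.16 in R 4.3.3 (TMM scaling, robust quasi-likelihood dispersion, 12.7% biological coefficient of variation, 8 residual degrees of freedom), and each comparison was tested two-sided with Benjamini-Hochberg adjustment over 14610 genes at a threshold of 0.05. Every single-gene adjusted p comes from this fit, unless given for a library left out or for library totals. Those come from refits with the same test, each with its own filter, scaling and adjustment. With 3 libraries a group, exact permutation reaches no p under 0.1. DESeq2 1.42.0 was an alternative, as were other scalings, filters and samples. Library distances used log2(CPM + 0.5). The scripts were tested on simulated data. Replicates differed by more than sampling noise. By chi-square on raw counts with ribosomal RNA genes included, pairs without thymus 3 in these 2 groups reached 13.9 to 30.9 times the degrees of freedom. The 2 pairs with thymus 3 reached 202 and 319. All libraries were kept.

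Deviations of same-numbered libraries from their group means had r = 0.149, 0.471 and 0.199 across genes. The labels name no shared batch, and these values do not settle whether equal numbers were paired. The main fit held no term for the replicate number, so its p-values use no pairing. Libraries of unequal number ran from -0.346 to 0.241, and control 1 with desiccated thymus 3 had the 0.241, above the first and the last of the same-numbered pairs. With the replicate number as a block, 464 genes rose and 127 fell.

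The comparison and 54 gene lists were chosen with earlier results of these data known, so lists are described by counts beside those of all genes. Genes named singly passed, did not overlap between groups, reached a mean of 5 CPM and were not ribosomal RNA genes. They were the 12 of smallest p and the 10 named genes of largest change in each direction, for every list the 6 passing members that changed most, or all members where 12 or fewer were tested, without the conditions on overlap and level, up to 8 genes in each direction that differed in the same direction from all other groups, and the 4 most abundant passing genes in each direction. Genes outside this rule were chosen after their values were seen: hsf-1, hsb-1, hsp-17, hsp-90, hsp-110, act-5, eps-8, ifc-2, glt-1, clec-166, daf-22, maoc-1, dhp-2, fat-6, fat-7, ets-4, T28F4.4, Y102A5C.36, Y102A5C.6, F19H8.7 and those said to be so in the text.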

Additional observations from a re-analysis of the deposited data

How the results depend on the processing

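Of 565 genes called against the control, DESeq2's test gave 871, a fit of only the 2 groups gave 327, and fits without 1 library gave 302 to 497. Among genes named singly, 167 passed, against 103 with only the 2 groups and 96 to 132 without 1 library. Members of the lists that passed numbered 161, against 254 with DESeq2, 103 with only the 2 groups and 89 to 142 without 1 library. Against the cytoplasmic extract, the 177 genes became 343 with DESeq2 and 48 to 91 without 1 library, and the share of higher genes was 65.5%, or 36.6% with library totals in place of TMM. Against the nuclear extract, the 24 genes became 107 with library totals, 38 with ribosomal RNA genes left out, 258 with DESeq2, 51 with a replicate block and 6 to 21 without 1 library. With the replicate block, the counts against the control and the cytoplasmic extract were 591 and 175, and of 280 genes examined singly 9 lost and 2 gained a call against the control. None of these 280 genes had opposite signs against the control in 2 fits of which either passed, and the causes of these changes in number were not tested. Depth left genes under the count filter untested, and of the 565 called genes 85 changed by less than 1.25-fold and 146 averaged under 5 CPM.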

Other observations

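Several lists not described above held few calls against the control. Of 45 autophagy and lysosome genes, 1 rose (spin-1, of the lysosomal sugar transporter family) and 3 fell (ncr-1, epg-9 and lgg-1, of which the last encodes an Atg8 protein of autophagosomes), with 0 lower without desiccated thymus replicate 2. These autophagy and lysosome calls were 2.22% higher and 6.67% lower, against 2.97% and 0.897% of all tested genes. Of 48 metal and heme genes, 3 rose (the ferroportin gene fpn-1.2, hrg-11.4 and hrg-11.2) and 1 fell (ftn-1), with 1 higher without desiccated thymus replicate 3. That is 6.25% higher and 2.08% lower, against 2.97% and 0.897% of all tested genes. Of 27 genes of glycolysis and gluconeogenesis, tps-2 fell (3.70%, against 0.897% of all tested genes), and 6 were lower without control replicate 1. By edgeR's test none passed among 34 DNA replication and cell cycle genes (0 higher and 7 lower at an unadjusted p under 0.05; DESeq2 called 4 lower; 1 was lower without desiccated thymus replicate 2), 37 nuclear genes of the respiratory chain (0 and 9; 0 with DESeq2), 18 propionate and vitamin B12 genes (1 and 4; DESeq2 called 3 lower; 3 were lower without control replicate 1) and 25 innexin genes (6 and 1; 0 with DESeq2).

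Some genes of the larval cuticle were highest in replicate 2 of both groups, and were chosen after their values were seen. dpy-5, which encodes a proprotein convertase of collagen processing, was at 0.159, 6.49 and 1.99 CPM in the control and at 6.13, 29.9 and 7.43 CPM with desiccated thymus, so the groups overlapped and it did not pass (log2 fold change 2.23, edgeR adjusted p = 0.376). The collagen gene col-73 was at 0.0797, 9.49 and 2.14 CPM and at 8.48, 41.6 and 9.83 CPM.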
